A study of Xenopus laevis with 60 samples.

Results

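Maternal mRNA was followed from cleavage to the blastula in Xenopus laevis embryos in which transcription was blocked. The genes described are those with a mean level of at least 1 TPM (transcripts per unit of sequenced RNA, scaled for gene length and depth) at stage 5, 18770 of the 49580 genes with a TPM value, and 18709 of them had enough reads to be tested. Their levels at stage 9 in embryos kept in 20 µM triptolide dissolved in DMSO since stage 1 (4 libraries, 2 from collection A and 2 from collection B) were compared with their levels in untreated stage 5 embryos (2 libraries). Batch-matched stage 9 embryos with DMSO alone (2 libraries in each collection), and untreated stage 6 (1 library), stage 7 (1 library) and stage 8 (2 libraries) embryos, are used beside them, as are levels of stage 9 embryos injected with a GFP control morpholino at stage 1 (1 library in collection E, 3 in F and 3 in G). Each library was made from total RNA of 2 wild-type embryos after depletion of ribosomal RNA, so that a level does not depend on the length of the poly(A) tail. Each collection pooled the eggs of 2 mothers, and the replicates of a collection are sets of embryos of 1 day, so that p-values measure the spread between sets of sibling embryos and not between mothers. Triptolide and DMSO embryos were taken at 8 hours post fertilization, when untreated embryos of the same batch were in the middle of stage 9. The labels name no collection for stages 5 to 8. Stage 5 libraries were also depleted of mitochondrial cox2 and cox3 RNA, which the paper places in an earlier study.

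A frog egg carries a large store of mRNA made during oogenesis, and the embryo divides on this store alone until its own genome is switched on in the blastula. The store is then removed, in part by proteins and RNAs already in the egg and in part by products of the embryo's genome, the microRNA miR-427 being the best known of these in Xenopus. Triptolide stops RNA polymerase II by acting on the general factor TFIIH, so that, where the block is complete, what changes in its presence needs no transcript made after it. X. laevis is an allotetraploid, and most genes have a copy on each of the L and S subgenomes, written here as .L and .S after the symbol.

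The block was visible in the libraries. The share of reads in introns was from 0.423% to 0.799% over the 4 triptolide libraries and from 5.29% to 7.31% over the 4 DMSO libraries. At stage 5 it was 0.578% and 0.562%. The intron set of the paper leaves out regions that reads covered in the earliest untreated embryos. The low stage 5 share was therefore set in part by that choice. For intron reads, only triptolide beside DMSO bears on the block. The summed level of 62 genes known to be switched on in the blastula lay between 4.63 and 9.71 TPM with triptolide, against 11.1 and 12.8 TPM at stage 5 and between 1936 and 2266 TPM with DMSO. Total exon counts ran from 15080720 to 25358689 over these 10 libraries. Markers of other cells were not at 0: a list of 10 blood genes summed to between 20.0 and 20.6 TPM at stage 5, 26.3 and 27.1 TPM in triptolide A and 29.9 and 32.5 TPM in triptolide B, with slc4a1.L the highest and 5 globin genes (hba1.L, hba1.S, hba3.L, hbd.S, hbg1.L) at 0 in all 6 libraries. The 9 ovarian follicle genes summed to between 76.1 and 78.0 TPM at stage 5, 132 and 143 TPM in triptolide A and 107 and 116 TPM in triptolide B, with cyp17a1.L the highest and star.S, inha.L and cyp19a1.L at 0 in all 6. The part of such cells in the results was not tested, and fewer cells of a type cannot be told apart from less RNA per cell.

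The stage 5 libraries stood apart from the libraries of the next stages. Counting maternal genes that differed by at least 1.5 on the log2(TPM + 0.5) scale, the 2 stage 5 libraries differed from each other in 12 genes and stages 6 and 7 differed from each other in 55, yet stage 5 differed from stage 6 in 905 and 925 genes and from stage 7 in 946 and 947. Triptolide A differed from stage 5 in 1134 to 1237 genes and triptolide B in 962 to 1189, numbers not far above those between stage 5 and its neighbours. The replicates of 1 triptolide collection differed in 39 genes (A) and 40 genes (B), and the 2 collections from each other in 566 to 697. The same split between collections was seen with DMSO, where A and B differed in 571 to 611 genes. Differences between mothers, between stages and between library preparations therefore cannot be told apart in a comparison with stage 5 alone. The counts of falls and rises, and the genes named from them, are also set against stages 6 and 7 together. This early reference is an alternative chosen after seeing the data.

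**Figure D1:**
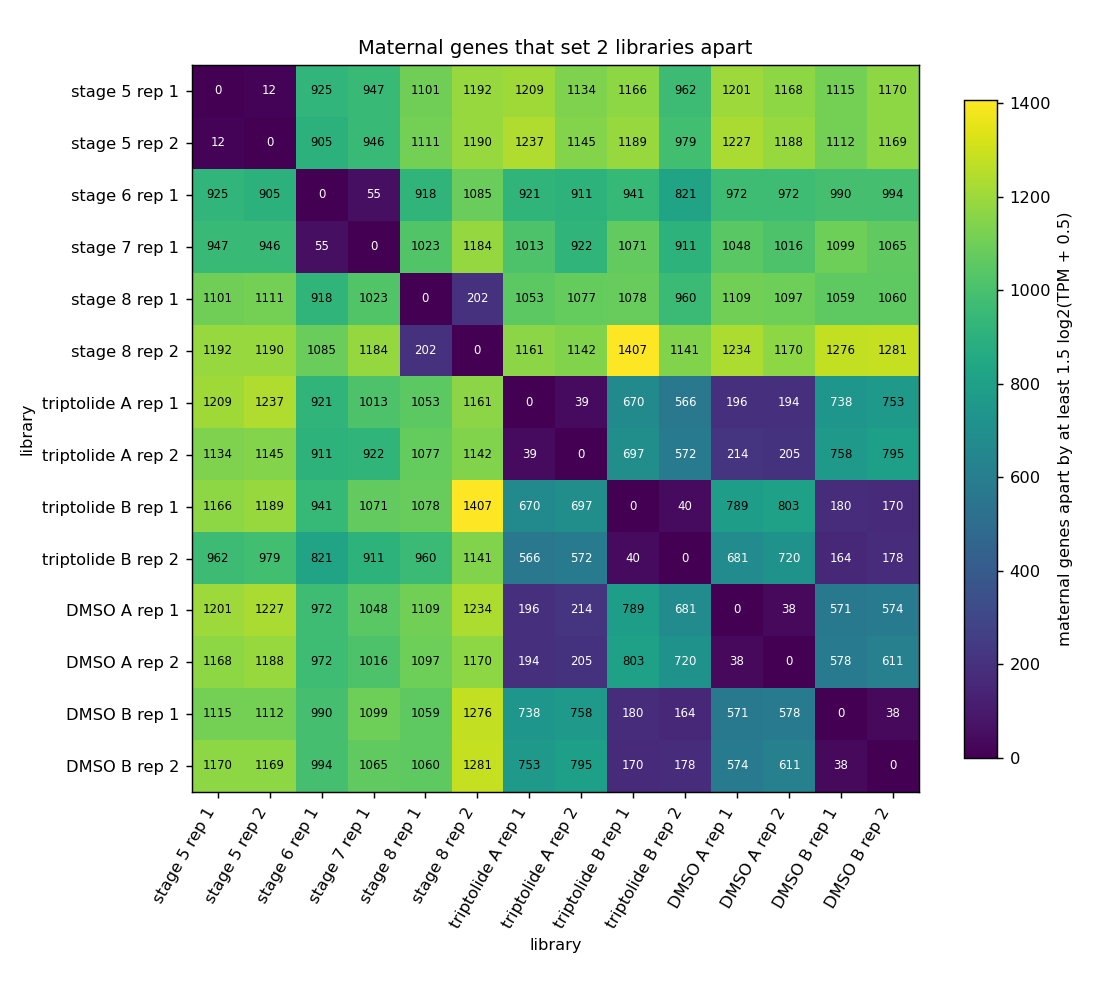
Number of maternal genes (of the 18709 tested) that differed by at least 1.5 in log2(TPM + 0.5) between each 2 of 14 libraries, named on both axes (rep, replicate), with the colour scale running from 0. The replicate pairs of stage 5, triptolide and DMSO are apart in 12 to 40 genes, triptolide and DMSO of 1 collection in 164 to 214, and stage 5 and stage 6 in 905 and 925.

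Most maternal genes were within 1 log2 unit of their stage 5 share of the RNA after the block. The median log2 difference from stage 5 over the 18709 genes was -0.03 in both collections, and 85.8% (A) and 86.7% (B) of them were within 1. Differences of any size were common. At an unadjusted p under 0.05 (edgeR quasi-likelihood F-test), 6062 genes were lower and 4907 higher in A, and 6242 lower and 5282 higher in B. The levels are shares of the sequenced RNA and the fit scales libraries to each other, so a loss common to all genes would not be seen. A gene was called when its adjusted p was under 0.05 (edgeR quasi-likelihood F-test, Benjamini-Hochberg over all 27602 genes tested) and its log2 difference at least 1.5. In collection A, 1173 maternal genes were lower than at stage 5 and 204 higher, where 5.97% and 3.91% of all tested genes were called lower and higher. In collection B, 1028 were lower and 264 higher, against 5.39% and 5.01% of all tested genes.

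Both collections called 606 maternal genes lower and 83 higher, against 2.88% and 1.63% of all tested genes. The 606 were 51.7% of the falls in A and 58.9% of those in B, and the 83 were 40.7% of the rises in A and 31.4% of those in B. These counts rest on the same 2 stage 5 libraries, and the cutoff on the stage 5 level favours genes that were high there, so the excess of falls over rises cannot be read. Against stages 6 and 7 the same genes gave 242 lower and 220 higher in both collections (1.29% and 1.18% of the maternal genes tested, against 2.19% and 1.43% of all tested genes). Genes called lower in both collections against stage 5 and again against stages 6 and 7 numbered 142 (0.759% of the maternal genes tested). Those called higher numbered 19 (0.102%). Over all tested genes these shares were 0.627% and 0.395%. The 606 genes had a median stage 5 level of 4.87 TPM, beside 28.1 TPM for all maternal genes, and a median exon length of 2070 bases, beside 2930. Their median log2 difference was -3.17 in A and -2.72 in B, or -2.79 and -2.61 once genes with no read in a collection (104 in A, 78 in B) were set to the bound that 3 counts per library allow. At the edge of the cutoff, hsd17b3.L and aspa.L were just inside with a mean of 1.00 TPM each, and foxi1.L (1.00 TPM, under 1 before rounding) and hes1.S (0.995 TPM) were just outside.

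The largest falls were from a clear stage 5 level to nearly nothing, and in most of them the stage 6 and 7 libraries were as low as those with triptolide. The gene c9.L, which encodes the pore-forming last component of complement, was at 29.1 and 28.7 TPM at stage 5 and had no read at stages 6, 7 and 8 or in any triptolide library. It was at least 187-fold lower in triptolide A and at least 279-fold lower in B (adjusted p = 1.24e-24 and 2.94e-26), the floor being 3 counts per library. With DMSO it was at 0.280 and 0.108 TPM in A and at 3.33 and 2.36 TPM in B. For cxcl8.S, the chemokine interleukin 8, stage 5 libraries had 22.2 and 23.2 TPM and stage 8 libraries 18.0 and 23.2 TPM, while stages 6 and 7 and all 8 triptolide and DMSO libraries had none. Its bound was at least 52.4-fold lower in A and at least 78.3-fold lower in B (adjusted p = 6.12e-17 and 9.37e-19). Presence at stages 5 and 8 and absence at stages 6, 7 and 9 is not an order in time, and the collection of these libraries is not named.

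Other large falls had the same shape. The GABA-A receptor subunit gabrd.L stood at 20.8 and 20.4 TPM at stage 5, at 0.0800 and 0.106 TPM at stages 6 and 7, and between 0 and 0.0450 TPM with triptolide. The tubulin polyglutamylase ttll7.L went from 19.8 and 20.3 TPM to between 0 and 0.0680 TPM with triptolide, and had 0.0200 TPM at stage 6 and none at stage 7. The scavenger receptor colec12.L had 18.6 and 19.9 TPM at stage 5, 0.352 and 0.206 TPM at stages 6 and 7, and between 0 and 0.112 TPM with triptolide. No stage 5 value of these genes overlapped those of any later library but stage 8 of cxcl8.S. The adaptor dok1.S (30.7 and 29.2 TPM at stage 5), the adenylyl cyclase adcy8.L (17.1 and 16.2 TPM) and the developmental cofactor eya1.L (12.7 and 13.8 TPM) were likewise at or under 0.541 TPM at stages 6 and 7 and at or under 0.258 TPM with triptolide. Of the 12 largest falls with a symbol, the calcium-binding scgn.L was the 1 that was called against stages 6 and 7 as well: 28.9 and 22.7 TPM at stage 5, 2.48 and 3.26 TPM at stages 6 and 7, and at most 0.157 TPM with triptolide.

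**Figure D2:**
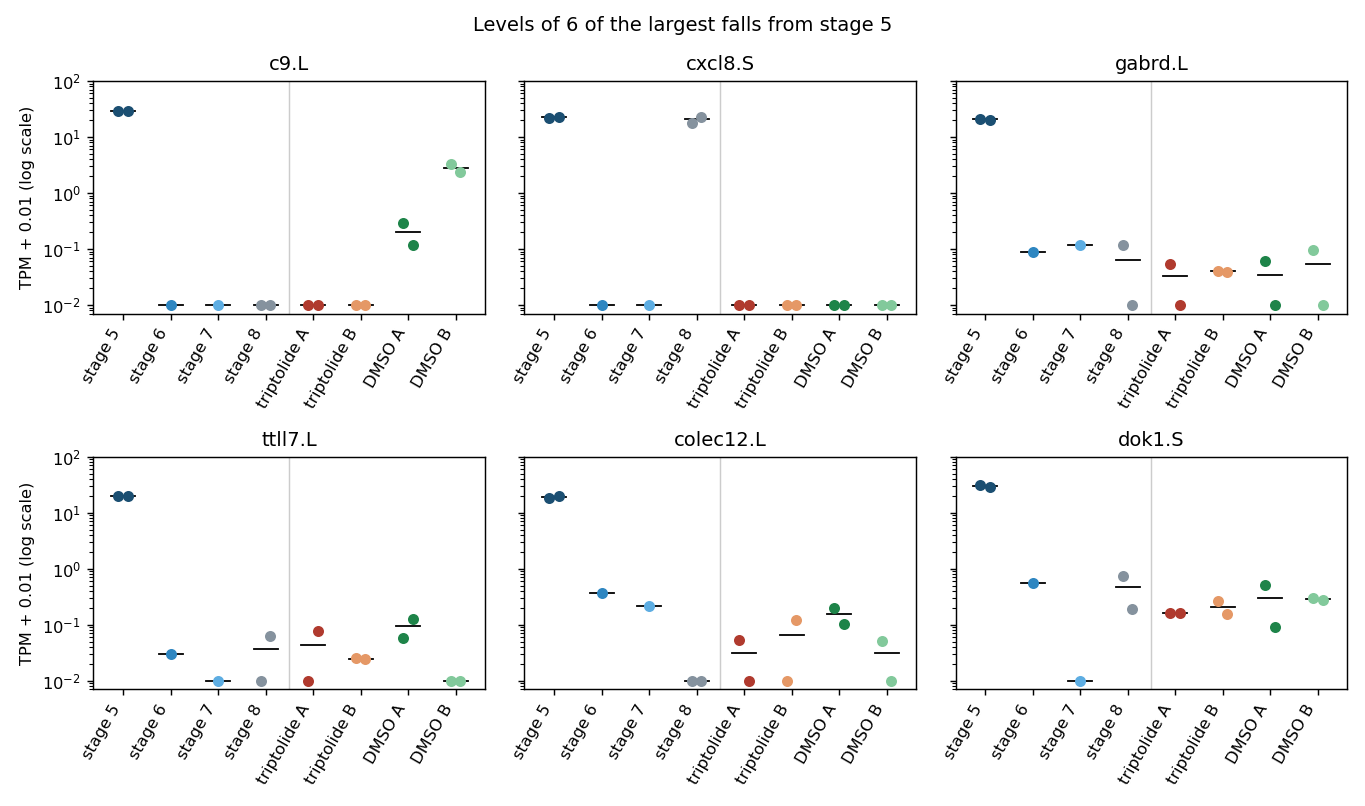
Level in TPM (plus 0.01, log scale) of 6 maternal genes in each library (points) with the mean of each group (bars), from stage 5 through stage 8 and, right of the line, at stage 9 with triptolide or DMSO in collections A and B. Stage 5 lies between 18.6 and 30.7 TPM in each panel, and stages 6 and 7 are at or under 0.541 TPM, as are the triptolide libraries.

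Among all 606 falls, 307 stood at least 1.5 lower on the log2 scale at stages 6 and 7 than at stage 5, and 238 were within 1 of stage 5 there. The stage 5 libraries enter both differences, so these counts describe the stage 5 libraries. In the GFP morpholino controls at stage 9 of collections E, F and G, 223 of the 606 (36.8%) reached at least 0.5 of the stage 5 level in at least 1 collection, where 96.2% of all maternal genes did. No read was left in any of the 4 triptolide libraries for 53 of the 606.

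The 142 genes called against both early references included abundant ones. Of the 142, 63 (44.4%) reached at least 0.5 of the stage 5 level in the GFP controls of E, F or G. Transcription was not blocked in these controls. Among the 63 were gins1.S (47.3 TPM in G), mad2l1.L (43 TPM in G) and nfkbia.L (48.7 TPM in G). In E and F the levels were 21.2 and 18.5 TPM for gins1.S, 21.7 and 28.2 TPM for mad2l1.L, and 24.2 and 19.2 TPM for nfkbia.L. These genes were thus not low at stage 9 in every collection. The anti-apoptotic BCL2 family member mcl1.L stood at 321 and 331 TPM at stage 5 and at 321 and 277 TPM at stages 6 and 7. With triptolide it had 72.7 and 64.7 TPM in A and 68.1 and 76.1 TPM in B. All 4 were below every earlier library, stage 8 included (217 and 159 TPM). Its log2 difference from stage 5 was -2.21 ± 0.12 (SE) in A and -2.09 ± 0.11 in B (adjusted p = 3.75e-21 and 4.31e-21), and -2.06 and -1.94 against stages 6 and 7. DMSO embryos had 158 and 132 TPM in A and 135 and 128 TPM in B. These lay between the triptolide and stage 5 values, 1.12 and 0.90 above triptolide on the log2 scale (adjusted p = 5.31e-10 and 3.39e-08).

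The replication factor gins1.S, a subunit of the GINS part of the replicative helicase, was at 92.0 and 85.8 TPM at stage 5 and at 74.9 and 85.3 TPM at stages 6 and 7. Triptolide libraries had 13.5 and 16.8 TPM (A) and 13.4 and 17.5 TPM (B), and DMSO libraries between 12.1 and 15.5 TPM. The stage 9 values with and without the block overlapped, and all lay under the stage 8 values of 69.1 and 76.8 TPM. The log2 difference from stage 5 was -2.52 ± 0.15 in A and -2.43 ± 0.13 in B (adjusted p = 1.20e-19 and 1.69e-20).

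The spindle checkpoint gene mad2l1.L went from 53.5 and 57.7 TPM at stage 5, 49.7 TPM at stage 6 and 52.2 TPM at stage 7 to 10.5 and 11.9 TPM in triptolide A and 7.63 and 11.2 TPM in triptolide B. Stage 8 lay between, at 32.0 and 33.0 TPM, and DMSO libraries (8.67 to 11.7 TPM) overlapped those with triptolide. The difference was -2.28 ± 0.18 in A and -2.46 ± 0.17 in B (adjusted p = 4.06e-15 and 4.15e-17). The phosphatase gene cdc25a.S, which drives cyclin-dependent kinases, fell more in A than in B: 103 and 107 TPM at stage 5 and 162 and 149 TPM at stages 6 and 7 became 15.2 and 16.2 TPM in triptolide A and 30.7 and 38.8 TPM in triptolide B. The collections did not overlap, and the difference between them was -1.20 ± 0.11 (adjusted p = 2.46e-12). The kinase-binding cks2.S fell from 219 and 219 TPM to between 58.1 and 73.4 TPM over the 4 triptolide libraries.

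The BMP-regulating Sizzled gene szl.S was at 91.6 and 87.9 TPM at stage 5 and at 80.2 and 67.4 TPM at stages 6 and 7. It had 18.6 and 18.7 TPM in triptolide A and 15.32 and 14.03 TPM in triptolide B, all under the earlier values (log2 -2.24 ± 0.14 and -2.53 ± 0.14, adjusted p = 4.30e-18 and 9.50e-21). The NF-kappaB inhibitor nfkbia.L went from 65.9 and 68.6 TPM at stage 5 and 46.6 and 54.9 TPM at stages 6 and 7 to 13.2 and 17.5 TPM in A and 10.7 and 10.1 TPM in B, with 71.6 and 64.0 TPM at stage 8. The hairy/Enhancer-of-split-related esr-5.L showed the block in its stage 9 level: it was at 30.3 and 30.3 TPM at stage 5, 52.5 TPM at stage 6 and 46.5 TPM at stage 7. Triptolide left 4.54 and 4.98 TPM in A and 5.12 and 6.47 TPM in B. DMSO embryos had 54.0 and 51.7 TPM in A and 62.8 and 64.9 TPM in B, above all triptolide values and near or above the early ones. Its log2 difference from stage 5 with triptolide was -2.63 ± 0.19 and -2.29 ± 0.16 (adjusted p = 4.12e-16 and 2.28e-16).

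**Figure D3:**
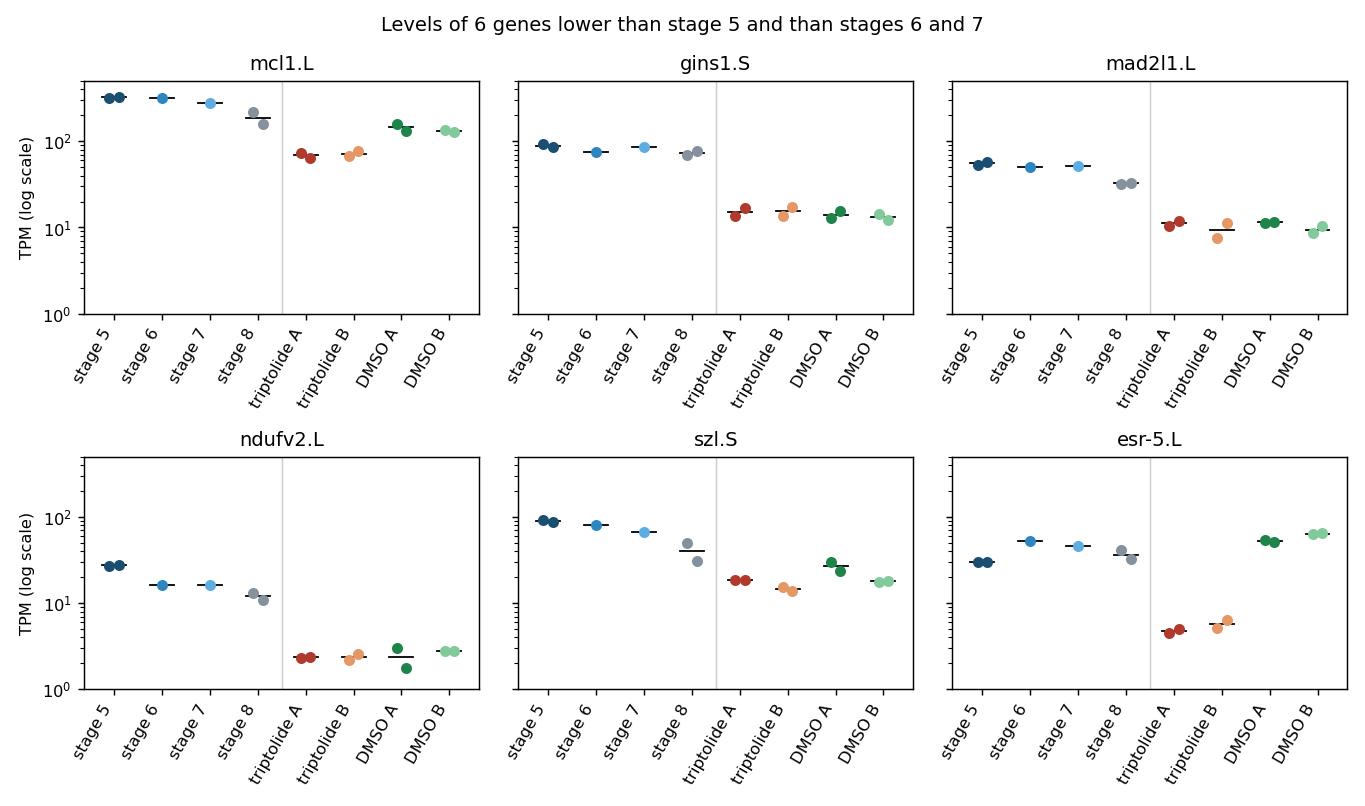
Level in TPM (log scale) of 6 maternal genes in each library (points) with group means (bars), in the order stages 5 to 8 and, right of the line, stage 9 with triptolide or DMSO. The 4 triptolide libraries lie under all stage 5, 6, 7 and 8 libraries in each panel, and esr-5.L alone of the 6 has DMSO levels back at 51.7 to 64.9 TPM.

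Of the 142, 11 had no read in any triptolide library. Others were close to none. The tryptophan hydroxylase tph2.S had 15.97 and 15.85 TPM at stage 5, 10.1 and 13.1 TPM at stages 6 and 7, and between 0.219 and 0.769 TPM with triptolide. The deISGylating protease usp18.L was at 23.6 and 26.1 TPM at stage 5, at 31.3 and 29.4 TPM at stages 6 and 7, at 0.0630 and 0.256 TPM in triptolide A and at 1.76 and 1.45 TPM in triptolide B. The nuclear receptor nr1h5.S, at 5.16 and 6.89 TPM and then 12.4 and 12.1 TPM, was at 0 and 0.0950 TPM in A and had no read in B. In all 3 the stage 8 libraries were also low, at or under 1.05 TPM.

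Nuclear-encoded subunits of the respiratory chain and ATP synthase had the most members falling in both collections of the 16 lists. These subunits are made in the cytoplasm, imported and assembled in mitochondria with the subunits that mitochondrial DNA encodes. Of 130 maternal members, 16 fell in both collections (12.3%, beside 3.24% of all maternal genes) and none rose in both. Of these 16, 11 fell against stages 6 and 7 too. The median log2 difference of the list was -0.63 in A and -0.60 in B (all maternal genes -0.03 and -0.03), and -0.60 and -0.55 against stages 6 and 7 (all maternal genes -0.01 and 0.01). Its summed level was 11487 and 11504 TPM at stage 5, 11399 TPM at stage 6 and 12490 TPM at stage 7. It was 8022 and 8454 TPM in triptolide A and 8342 and 8380 TPM in triptolide B. The triptolide sums lay under all 4 early libraries, and so did the others of the blastula: DMSO libraries had between 7647 and 8157 TPM, and stage 8 libraries 8861 and 7750 TPM.

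Complex I, the NADH dehydrogenase, held 11 of the 16 falls among its 57 members, with a median of -0.96 in A and -0.98 in B, and 52 (A) and 50 (B) of the 57 were below 0. The flavoprotein subunit ndufv2.L had 27.3 and 27.6 TPM at stage 5, 16.2 and 16.3 TPM at stages 6 and 7, 2.34 and 2.40 TPM in triptolide A and 2.18 and 2.59 TPM in triptolide B. Its log2 difference was -3.49 ± 0.23 in A and -3.42 ± 0.21 in B (adjusted p = 2.60e-17 and 5.63e-19), and DMSO libraries (1.79 to 2.99 TPM) overlapped those with triptolide. The accessory subunit ndufb8.S went from 47.7 and 53.4 TPM to 6.76 and 7.74 TPM in A and 14.03 and 14.06 TPM in B. The subunit ndufs4.L, needed to finish the assembly of complex I, went from 50.2 and 54.5 TPM to 13.6 and 11.9 TPM in A and 10.6 and 9.19 TPM in B. The remaining complex I falls were ndufa1.L, ndufa1.S, ndufs6.S, ndufb3.L, ndufb4.L, ndufb6.L, ndufa11.S and ndufa12.S.

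Of the other complexes, complex III with cytochrome c had 2 falls of 16 members (uqcrq.L and uqcrq.S, the homeologs of 1 subunit), complex IV 1 of 22 (cox6b1.L), ATP synthase 2 of 28 (atp5me.S and atp5mf.L) and complex II none of 7, with medians between -0.66 and -0.20. For cox6b1.L, 139 and 137 TPM at stage 5 and 132 and 153 TPM at stages 6 and 7 became 29.4 and 42.5 TPM in A and 33.6 and 36.8 TPM in B. These are short mRNAs: the list had a median exon length of 935 bases, and over all maternal genes of 500 to 1000 bases the median log2 difference was -0.37 in A and -0.31 in B, with 7.6% called lower in both. The part of length in the fall of the list was not tested. The ribosomal proteins, also short, had 3 falls of 132 (rpl27a.L, rpl27a.S and rps27l.S) and medians of -0.56 in A and -0.29 in B (-0.39 and -0.12 against stages 6 and 7).

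**Figure D4:**
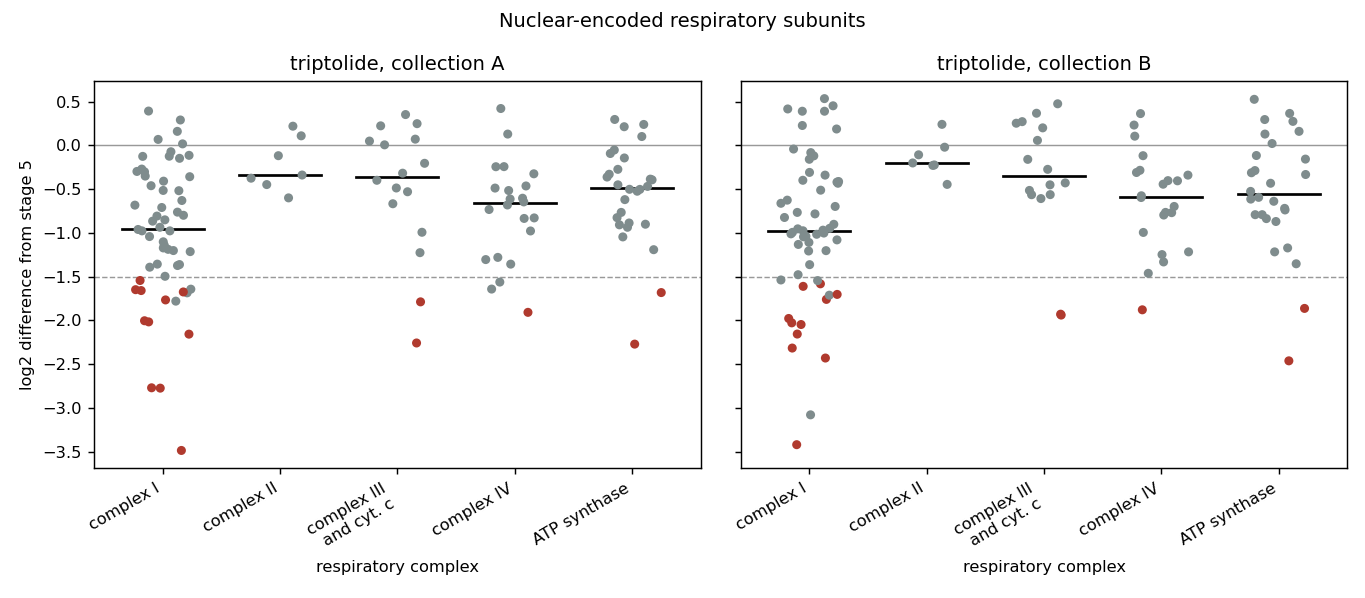
Log2 difference from stage 5 of 130 nuclear-encoded subunits by respiratory complex (points, 1 per gene) in triptolide A (left) and B (right). Black bars are medians, the dashed line marks -1.5, and red points are the 16 genes called lower in both collections, 11 of them in complex I.

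The transcripts of mitochondrial DNA, which a polymerase of the mitochondrion makes, were lower in triptolide B than in triptolide A. RNA of cox2 and cox3 was depleted from the stage 5 libraries when they were made, and without these the remaining 10 maternal members summed to 37023 and 36634 TPM at stage 5, 37104 and 38428 TPM in triptolide A and 12562 and 16787 TPM in triptolide B. Stages 6 and 7 had 25600 and 29121 TPM, between the collections. DMSO libraries lay near the triptolide libraries of their collection, with 32637 and 35463 TPM in A and 15771 and 16373 TPM in B. Over all 12 maternal members the median log2 difference from stage 5 was -0.12 in A and -1.69 in B, and 0.43 and -0.87 against stages 6 and 7. In B 6 members fell and in A none did. The rise of cox2.L, from 643 and 513 TPM to between 4570 and 11807 TPM, cannot be told apart from that depletion.

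Stress and apoptosis genes were the other list with many falls, 8 of 47 maternal members (17%, beside 3.24%), and none rose in both. Besides mcl1.L and nfkbia.L they were the NF-kappaB inhibitor's homeolog nfkbia.S, the AP-1 subunits fos.L, fos.S and jund.L, the heme oxygenase hmox1.L and the growth arrest gene gadd45a.S. Against stages 6 and 7 the calls held for mcl1.L, nfkbia.L and fos.L. The early response gene fos.L was at 12.5 and 13.1 TPM at stage 5, at 12.2 and 14.5 TPM at stages 6 and 7, at 2.18 and 2.67 TPM in triptolide A and at 1.11 and 1.81 TPM in triptolide B. The groups did not overlap (log2 -2.36 ± 0.19 and -3.02 ± 0.19, adjusted p = 2.50e-14 and 3.80e-18). The remaining members were not called in both, and the list medians were -0.24 in A and -0.18 in B (-0.24 and -0.17 against stages 6 and 7).

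In 7 of the 16 lists no gene was called in both collections. No member fell or rose in both collections among 41 germ plasm and germ cell genes, 32 oocyte and egg products, 81 genes of the mRNA decay machinery, 45 RNAs known to carry embryonic deadenylation or cytoplasmic polyadenylation elements, 93 maternal transcription factors and signals, 66 translation and housekeeping genes and 24 histones. Their medians lay between -0.07 and 0.18. The deadenylation and polyadenylation RNAs summed to 15712 and 15919 TPM at stage 5, 16922 and 17208 TPM in triptolide A and 15797 and 16179 TPM in triptolide B, and their most abundant member, the embryonic A-type cyclin ccna1.L, was at 1131 and 1127 TPM at stage 5 and between 1294 and 1441 TPM with triptolide. The member with the smallest p in B was fbxo5.S, which encodes Emi1, an inhibitor of the anaphase-promoting complex: 188 and 181 TPM at stage 5, 194 and 216 TPM at stages 6 and 7, 73.1 and 83.1 TPM in A and 54.8 and 63.8 TPM in B. Its log2 difference was -1.21 ± 0.11 in A, under the 1.5 needed for a call, and -1.55 ± 0.11 in B (adjusted p = 2.06e-13 and 4.25e-17). In the germ plasm list the RNA-binding rbpms2.S went from 460 and 445 TPM to between 217 and 247 TPM over the 4 triptolide libraries (log2 -0.86 ± 0.06 and -0.89 ± 0.06), and DMSO libraries had 218 to 233 TPM.

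In lists of translation control, division, replication and RNA synthesis, 2.38% to 3.70% of the members fell in both, near the 3.24% of all maternal genes. The embryonic poly(A)-binding protein gene pabpn1l.S had 69.6 and 71.9 TPM at stage 5 and between 19.5 and 23.8 TPM with triptolide (log2 -1.76 ± 0.13 and -1.56 ± 0.12, adjusted p = 1.91e-15 and 5.80e-15), and was the 1 fall among 39 genes of oocyte translation control. It had 52.9 and 59.6 TPM at stages 6 and 7 and missed the call against them. In the cell cycle list 2 of 55 fell (mad2l1.L and cdc25a.S). In the replication list 2 of 54 fell (gins1.S and orc5.L) and 1 rose (cdc45.S), and in the list of RNA polymerase II and splicing 2 of 84 fell (polr2h.L and tbpl2.L, the oocyte TBP relative). The polymerase subunit polr2h.L had 24.3 and 23.5 TPM at stage 5, 14.7 and 17.8 TPM at stages 6 and 7, 4.17 and 3.21 TPM in triptolide A, and 2.51 and 2.55 TPM in triptolide B.

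Maternal regulators of pluripotency and of the germ layers named by the study were mostly near their stage 5 levels. For sox3.L, a SoxB1 activator, stage 5 libraries had 371 and 348 TPM and triptolide libraries 404 and 369 TPM (A) and 487 and 420 TPM (B), ranges that overlapped in A. For pou5f3.3.L, the maternal OCT4 relative, the values were 372 and 377 TPM at stage 5, 470 and 420 TPM in A and 592 and 504 TPM in B (log2 0.28 ± 0.08 and 0.64 ± 0.08). The T-box factor vegt.L had 234 and 230 TPM at stage 5 and between 221 and 288 TPM with triptolide, and the nodal cofactor foxh1.L 228 and 228 TPM and between 214 and 271 TPM. None of these, nor their homeologs, nor smad1, smad2 or otx1.L, reached a log2 difference of 1 in either collection. The OCT4 relative pou5f3.2.L, which is also transcribed in the blastula, differed from them: it was at 12.72 and 14 TPM at stage 5, 76.9 and 65.4 TPM at stages 6 and 7, 22.7 and 23.6 TPM in triptolide A and 52.9 and 46.6 TPM in triptolide B. It was called higher than stage 5 in B alone (log2 1.98), and was between 215 and 289 TPM with DMSO.

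Rises in both collections were fewer, and most of these genes were also higher than stage 5 in the stage 6 and 7 libraries. The tRNA methyltransferase trdmt1.L was at 1.27 and 0.840 TPM at stage 5, 26.3 and 22.8 TPM at stages 6 and 7, 18.8 and 19.9 TPM in triptolide A and 16.6 and 16.9 TPM in triptolide B. Against stage 5 it was 4.204 ± 0.24 and 4.05 ± 0.23 higher on the log2 scale (adjusted p = 6.99e-20 and 1.19e-19), and against stages 6 and 7 it was -0.30 and -0.46. The ubiquitin ligase lnx2.L, the ganglioside synthase b4galnt1.L, the desmosomal cadherin dsg2.S and the angiopoietin angpt4.2.S had the same shape. Of the 83 rises, 50 stood at least 1.5 higher at stages 6 and 7 than at stage 5.

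Of the 19 genes higher than both early references, 8 had a symbol: cdc45.S, pnp.S, hsd17b3.L, ddr2l.S, suox.S, tmem37.S, cyp51a1.S and tdh.S. The helicase subunit cdc45.S had 1.78 and 2.32 TPM at stage 5 and 1.494 and 1.497 TPM at stages 6 and 7, against 22.9 and 24.3 TPM in triptolide A, 18.5 and 13.2 TPM in triptolide B and 24.8 and 27.6 TPM at stage 8. DMSO libraries, at 17.4 to 24.7 TPM, overlapped those with triptolide. The difference from stage 5 was 3.55 ± 0.20 in A and 3.03 ± 0.20 in B (adjusted p = 2.97e-20 and 1.74e-17). The purine nucleoside phosphorylase pnp.S was at 1.53 and 1.44 TPM at stage 5, 15.96 and 15.36 TPM in A and 10.96 and 9.278 TPM in B, and the collagen receptor relative ddr2l.S at 4.17 and 4.03 TPM, then 38.8 and 37.9 TPM and 54.2 and 38.5 TPM. The threonine dehydrogenase tdh.S went from 14.03 and 13.99 TPM to 48.2 and 51.2 TPM in A and 39.2 and 39.0 TPM in B. All 4 stood apart from stages 5, 6 and 7 in each triptolide library. What set these levels was not tested.

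Collections A and B were compared directly. Of the maternal genes, 530 were lower in triptolide A than in triptolide B and 300 were higher, against 4.65% and 3.18% of all tested genes. Of these 830, 440 differed the same way, by at least 1.5, between the mean log2(TPM + 0.5) of DMSO A and of DMSO B. That count used no test, and the added 0.5 TPM shrinks differences of genes at low levels. The remaining genes therefore cannot be read as alike in DMSO A and DMSO B. The difference between DMSO and triptolide was called as differing between the collections for 18 maternal genes. The genes with the largest differences between triptolide A and B were present in 1 collection and absent from the other. The integrin itga4.L was at 24.4 and 24.5 TPM at stage 5, at 27.6 and 33.5 TPM in triptolide A and at 0 and 0.101 TPM in triptolide B, with 26.1 and 29.7 TPM (A) and 0.115 and 0.0340 TPM (B) with DMSO. The channel-like tmc4.L had 11.97 and 10.82 TPM in A and 0.0330 and 0 TPM in B. In the other direction, the MCM-domain gene mcmdc2.L had no read in A and 7.15 and 6.96 TPM in B, at least 52.8-fold lower in A, and tox2.L none in A and 5.63 and 5.88 TPM in B, at least 39.9-fold lower. Alpha-synuclein's partner sncaip.L was at 30.7 and 30.0 TPM at stage 5, at 0.166 and 0.218 TPM at stages 6 and 7, at 77.6 and 94.5 TPM at stage 8, at 0 and 0.0470 TPM in A and at 26.02 and 28.05 TPM in B. In each of these the DMSO libraries of a collection lay with its triptolide libraries. None of them passes as a fall in both collections. A comparison of 1 collection with stage 5 would have called 666 genes in A and 581 genes in B that the other did not call. Of these, 327 (A) and 247 (B) were called in the direct comparison of A with B. That comparison called 4.44% of all maternal genes tested. For the rest of the 666 and 581, a call in 1 collection only does not show a difference between the collections. A call in 1 collection only makes a direct call more likely, and these counts were not made over all tested genes.

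Few maternal genes differed in exon counts between DMSO and triptolide embryos of the same collection. Exon counts miss part of the effect of the block. The paper reports that for most activated genes maternal RNA hid the activation when exon reads alone were counted. DMSO embryos were higher than triptolide embryos in 197 maternal genes in A and 173 in B (1.05% and 0.925% of the maternal genes tested), 130 of them in both (0.695%). Over all tested genes the shares were 4.80% and 5.33%, and 3.78% in both. DMSO embryos were lower in 3 maternal genes in A (0.0160%) and 1 in B (0.00535%), against 0.0254% and 0.0181% of all tested genes. None was lower in both (0.00%); 84 were lower in both at an unadjusted p under 0.05, of which 0 had a log2 difference of 1.5, and DESeq2 also called 0 lower. The genes lower with DMSO in 1 collection were myocd.L, adamts12.L and gene34879, a gene with no symbol, in A and the mitochondrial nd6.L in B. For 25 of the 606 falls the DMSO level was called above the triptolide level in A and in B. DMSO embryos themselves had 552 maternal genes lower and 188 higher than stage 5 in both collections (2.95% and 1.00% of the maternal genes tested). Over all tested genes the shares called in both were 2.52% and 6.63%. Single collections gave 5.12% lower and 9.91% higher in A and 4.55% and 11% in B over all tested genes.

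For genes transcribed in the blastula, the triptolide libraries gave the level with transcription blocked. RNA left from the maternal supply and RNA made despite the block were not told apart. The S copy of pou5f3.2 was at 2.27 and 2.63 TPM at stage 5. It was at 1.79 and 1.71 TPM (A) and 2.65 and 3.48 TPM (B) with triptolide, against 120 and 111 TPM (A) and 125 and 130 TPM (B) with DMSO. The triptolide values lay below those of stage 5 in A and above them in B, neither difference passing the test (log2 -0.45 ± 0.29 and 0.42 ± 0.23, adjusted p = 0.237 and 0.15), and the DMSO difference was 6.08 and 5.40 on the log2 scale (adjusted p = 5.05e-32 and 5.44e-33). The endoderm factor sox17b.1.S had 1.47 and 1.36 TPM at stage 5, between 0.119 and 0.925 TPM with triptolide and between 43.6 and 46.9 TPM with DMSO. The LIM homeobox gene lhx5.S, by contrast, had 7.82 and 9.06 TPM at stage 5, no read at stages 6, 7 and 8, at most 0.167 TPM with triptolide and between 21.6 and 31.3 TPM with DMSO. It counted as a fall against stage 5 and had no early level in any other library.

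The L and S copies of a gene could move apart. Among 4587 pairs with both copies maternal, the difference from stage 5 differed between the copies of 248 pairs in both collections (limma on log2(TPM + 0.5), with the p and size thresholds of the calls above), with the L copy falling more in 120 and the S copy in 128. Against stages 6 and 7 there were 214 such pairs, 70 of them among the 248. The mitochondrial thioredoxin gene txn2 was called against both. Its L copy was at 56.8 and 57.6 TPM at stage 5, 4.75 and 7.35 TPM at stages 6 and 7, 0.930 and 0.794 TPM in triptolide A and 0.160 and 0.499 TPM in triptolide B, while its S copy was at 42.3 and 42.5 TPM at stage 5 and between 44.3 and 48.0 TPM with triptolide. The change of the L copy minus that of the S copy was -5.90 ± 0.32 in A and -7.07 ± 0.32 in B on the log2 scale (adjusted p = 2.96e-15 and 7.58e-17). The copies of cdc45 moved in opposite directions, with the L copy at 298 TPM at stage 5 and 206 TPM (A) and 179 TPM (B) with triptolide as means, and the S copy rising as given above. In adcy8 and dok1, which with txn2 had the largest differences against stage 5, the copies did not differ in this way against stages 6 and 7. Of the 606 falls, 148 had a maternal homeolog. Of those 148 homeologs 28 fell as well, a larger share than the 3.24% of all maternal genes that fell in both collections. A pair whose copies both fell enters these counts with each copy, so the 28 are not 28 separate pairs. The median change of the 148 was -2.36 in A and -2.18 in B, and that of their homeologs -0.57 and -0.65. Reads shared between close copies may have been split between them by the counting.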

How the data were processed

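Per the labels and the methods, total RNA libraries were depleted of ribosomal RNA, and the authors aligned read pairs with HISAT2 (2.2.1 in the submitters' processing notes) to the X. laevis v9.2 genome and counted reverse-stranded pairs over exons with featureCounts 2.0.1. The deposited exon files hold raw counts per gene and TPM that the authors made from those counts and exon lengths. The deposited intron counts and intron RPKM were used for intron shares and for 1 alternative fit.

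Exon counts of 53 libraries (all but collection H) in 26 groups were fitted in edgeR 4.0.16 (R 4.3.3) with TMM scaling, 1 coefficient per group and the quasi-likelihood F-test. Genes needed 0.5 CPM in at least 1 library. Counts on rows with no TPM (0.0672% to 0.885% of a library) were left out. Each SE came from the F value and its log2 difference. A gene at 0 was given a bound from 3 counts per library. Such bounds cover counting error only, while each SE also holds the spread between replicate libraries. Homeologs were compared with limma 3.58.1, and DESeq2 1.42.0 was an alternative. The fit was tested on simulated data: of 50 genes lowered to 0.25 of their level, 45 were recovered in both collections, with 0 false calls over 27602 genes. The simulation used 1 spread for all genes and no difference between collections or mothers. Its false calls therefore do not measure calls that such differences could bring.

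Members and 16 lists were chosen with earlier results of these data known. Named genes are the 12 largest falls and 12 largest rises with a symbol and at least 5 TPM on 1 side, the 5 largest each way between A and B, the 8 most raised with DMSO, the most abundant and most significant member of each list, the largest homeolog pairs and genes the study names. Genes called against both early references were picked after their values were seen. Stage 5 replicates differed by a chi-square of 1.26 per gene, triptolide replicates by 4.34 (A) and 10.4 (B). A list of testis and sperm genes matched no symbol. Of the 49580 genes with a TPM value, 26691 have no symbol, and no coordinates or sequences are printed. GFP morpholino libraries of collections E, F and G gave levels for comparison, and libraries with cycloheximide or other morpholinos entered the fit only for its spread.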

Additional observations from a re-analysis of the deposited data

Results flagged for a closer look

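Collections A and B called 22 maternal genes in opposite directions against stage 5: 19 were lower than stage 5 in A and higher in B, and 3 were higher in A and lower in B. No such count was made over all tested genes, so no share stands beside it. All 22 were also called A against B. The choice of genes made that call nearly certain, since each differed from stage 5 by at least 1.5 in opposite directions. It is therefore no separate support. The ubiquitin ligase gene cblb.L was at 2.25 and 1.93 TPM at stage 5, 0.0810 and 0.539 TPM in triptolide A and 14.7 and 12.8 TPM in triptolide B, and the scramblase family gene ano9.L at 3.86 and 3.56 TPM, 11.9 and 14.2 TPM, and 0.798 and 0.748 TPM. DMSO libraries lay with their own collection for both (0.450 and 0.346 TPM in A and 16.3 and 17.1 TPM in B for cblb.L).

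The difference between DMSO and triptolide itself differed between the collections for 18 maternal genes, by an interaction term added after seeing the data. The difference was larger in A for 16 and larger in B for 2, against 0.123% and 0.0181% of all tested genes. The retinoic acid-degrading enzyme gene cyp26a1.S had 23.0 and 23.2 TPM at stage 5, 0.537 and 0.642 TPM in triptolide A, 10.8 and 11.2 TPM in triptolide B, 52.0 and 49.9 TPM with DMSO in A and 24.1 and 26.2 TPM with DMSO in B. Its interaction was 5.22 ± 0.40 on the log2 scale (edgeR, adjusted p = 8.58e-13). The retinal reductase gene dhrs3.S was also larger in A, by 1.98 ± 0.29 (adjusted p = 2.52e-05). What set these differences was not tested.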

How the results depend on the processing

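The counts of falls and rises moved with the early libraries used as reference and with the cutoffs. With stages 6 and 7 in place of stage 5 there were 696 lower and 396 higher in A, 534 and 500 in B and 242 and 220 in both, and DMSO in both had 229 and 342. With stage 8 (counts only) the same were 674 and 558, 581 and 683, 267 and 325, and 225 and 418. With stages 5, 6 and 7 as 1 reference the higher genes were 123 in A, 155 in B, 31 in both and 122 with DMSO. Those 3 references were chosen after seeing the data. Choosing maternal genes on stages 6 and 7 gave 424 higher in A, 652 lower and 527 higher in B, 318 and 219 in both, and 285 and 346 with DMSO in both. A cutoff of 5 TPM gave 585 and 60 in A, 503 and 93 in B, 299 and 25 in both, 229 and 111 between A and B, 43 above triptolide with DMSO in both, and 280 and 54 for DMSO against stage 5. A log2 difference of 1 gave 2011 and 501 in A, 1814 and 619 in B, 1139 and 213 in both, 911 and 612 between A and B, and 1066 and 343 for DMSO against stage 5. Fitting the 4 triptolide libraries as 1 group gave 185 higher. The cause of these shifts was not tested, apart from fewer or more genes passing the changed cutoffs.

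Leaving out 1 library in turn gave 1103 to 1214 lower and 192 to 218 higher in A, 943 to 1154 and 231 to 291 in B, 571 to 631 and 73 to 89 in both, 499 to 532 lower and 246 to 389 higher between A and B, 122 to 130 higher and 0 to 0 lower with DMSO than with triptolide, 508 to 552 and 183 to 190 for DMSO against stage 5, and 228 to 237 homeolog pairs. Replicate numbers did not pair the samples: same-numbered deviations correlated by 0.09 between triptolide and DMSO in A and -0.10 in B. With the replicate block, 593 genes were lower and 86 higher in both. DESeq2 called 502 and 80.

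Against stages 6 and 7 some named genes changed direction, on the log2 scale: ttll7.L (1.12 in A, 0.12 in B), agmo.L (2.21 in A), eya1.L (1.81, 1.93), trdmt1.L (-0.30, -0.46), cox2.L (-0.56 in B), lnx2.L (-0.47 in B), b4galnt1.L (-0.54, -0.77), angpt4.2.S (-0.69 in A), rufy3.S (0.42 in B), lhx5.S (3.57, 1.79), slc38a2.L (1.60, 0.13), pou5f3.2.L (-0.41 in B), nodal1.S (2.24 in B) and adcy8.S (-0.28 in B). Several rest on a few reads. Homeolog pairs numbered 201 when tested on log2(TPM + 1).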

Other observations

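Some single maternal genes outside the lists fell against both early references. They included the RNA polymerase I subunit polr1h.L (25.5 and 27.6 TPM at stage 5, 4.83 and 2.58 TPM in triptolide A, 3.58 and 3.11 TPM in triptolide B) and the Mediator subunit med28.L (87.6 and 87.4 TPM, then 19.2 and 19.5 TPM and 20.6 and 19.5 TPM). The mitochondrial assembly genes cmc1.L and fmc1.L, which were not in the respiration list, also fell: cmc1.L from 63.5 and 62.0 TPM to 7.74 and 8.53 TPM in A and 6.10 and 3.88 TPM in B, and fmc1.L from 25.5 and 26.6 TPM to 4.81 and 5.22 TPM in A and 2.52 and 4.92 TPM in B. The proteasome assembly chaperone psmg3.L fell as well (34.5 and 34.8 TPM, then 6.75 and 6.63 TPM and 7.53 and 9.78 TPM). The multiciliate cell regulator mcidas.S went from 46.3 and 49.1 TPM at stage 5 and 21.0 and 20.4 TPM at stages 6 and 7 to 7.47 and 6.25 TPM in A and 2.89 and 4.26 TPM in B. These genes were chosen after their values were seen, and no list was counted for them.

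The chaperone gene dnajb5.L, which lies upstream of the miR-427 cluster, differed between collections. It was at 23.8 and 24.7 TPM at stage 5, 7.35 and 5.15 TPM at stages 6 and 7, 6.72 and 4.34 TPM in triptolide A and 18.5 and 13.9 TPM in triptolide B, a difference between A and B of -1.60 ± 0.17 on the log2 scale (edgeR, adjusted p = 5.91e-11). Its homeolog dnajb5.S was at 8.67 and 8.38 TPM at stage 5 and between 12.4 and 15.8 TPM over the 4 triptolide libraries. No row of the files was paired with miR-427 itself here.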
